A study of Mus musculus with 12 samples.

Results

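A set of 9 genes of bile acid synthesis and its feedback control was followed through mouse libraries given as liver: Cyp7a1, Cyp8b1, Cyp27a1, Cyp7b1, Baat, Nr1h4, Nr0b2, Fgfr4 and Klb. Members were the rows of the deposited expression table that carry one of these symbols, 9 of 35275 rows, and all 9 were among the 12251 genes with a mean of at least 0.5 FPKM (fragments per gene, divided by the gene's length and by the library's depth). The study crossed a genotype with a diet, with 3 biological replicates in each of 4 groups. The groups were an Hnf4a liver knockout on high fat diet (KO HFD), the same knockout on vivarium chow (KO chow), wild type on high fat diet (WT HFD) and wild type on vivarium chow (WT chow). The sources used here do not give the Cre line or promoter behind the knockout, the deleted exons, or the age, sex and strain of the mice, and they name no treatment other than diet.

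The liver makes bile acids from cholesterol by a classical route that Cyp7a1 opens and an acidic route that Cyp27a1 and Cyp7b1 open. Bile acids activate FXR (Nr1h4), which induces SHP (Nr0b2), a repressor of Cyp7a1 and Cyp8b1, and in the intestine FXR induces Fgf15, which acts on hepatocytes through Fgfr4 and its co-receptor Klb. HNF4A is a nuclear receptor known to bind and activate the Cyp7a1 and Cyp8b1 promoters.

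Promoters are shown for Cyp8b1, which HNF4A activates and SHP represses, and for Nr0b2, which encodes SHP. The 250 bases before the RefSeq start site (GRCm38.p6) of Cyp8b1 and of Nr0b2 are shown, 5′ to 3′ on the strand of the gene. The Cyp8b1 window lies at chr9:121916306-121916555 on the minus strand, with capitals marking CAAAGTCCA, a 9-base HNF4A-type site. The Nr0b2 window lies at chr4:133553126-133553375 on the plus strand, with capitals marking TCAAGG and CAAGGCCA. These are short forms of the site that monomeric nuclear receptors such as Nr5a2 bind.
Cyp8b1: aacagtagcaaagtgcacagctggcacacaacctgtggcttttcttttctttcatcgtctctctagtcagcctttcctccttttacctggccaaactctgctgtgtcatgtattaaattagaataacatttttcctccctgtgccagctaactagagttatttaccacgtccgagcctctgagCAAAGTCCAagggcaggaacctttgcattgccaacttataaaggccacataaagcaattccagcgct
Nr0b2: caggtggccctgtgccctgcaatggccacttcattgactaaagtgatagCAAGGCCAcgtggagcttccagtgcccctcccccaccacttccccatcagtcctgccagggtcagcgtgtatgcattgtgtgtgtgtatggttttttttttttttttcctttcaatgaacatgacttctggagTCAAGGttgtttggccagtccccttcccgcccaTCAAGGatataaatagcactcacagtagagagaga
CAAAGTCCA stood at -67 to -59 from the start of Cyp8b1 and in 0.384% of 32851 such windows, counted on both strands with 1 window per annotated start. TCAAGG stood at -68 to -63 and at -35 to -30 of Nr0b2 and in 12.5% of windows, and CAAGGCCA at -201 to -194 and in 1.99%. The nuclear receptor core AGGTCA (14% of windows) was not among the letters of these 2 windows. None of these motifs overlaps another in these windows, and the letters searched were chosen after the sequences had been seen. RefSeq windows were found for 6 of the 9 genes, Cyp27a1, Klb, Nr1h4 and Fgfr4 being the others, and a match describes the letters only.

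The libraries need a word before the values. Reads on genes numbered 15705196 to 20311766 per library. Hnf4a itself did not follow the genotype labels: it stood at 108, 98.8 and 138 FPKM in the libraries labelled KO HFD and 158, 132 and 130 FPKM in those labelled KO chow, against 133, 116 and 120 FPKM in WT HFD and 126, 75.8 and 0.0973 FPKM in WT chow. A sum over the whole gene can keep reads of exons outside a deletion, so a genotype comparison below sets libraries by their labels, KO or WT. The library labelled WT chow 3 had a summed level of 18.7 FPKM over the 6 hepatocyte markers, against 22996 to 62028 FPKM in the other 11, and 12921 FPKM over the 5 adipocyte markers, led by Fabp4 at 8367 and the brown fat marker Ucp1 at 2339 FPKM. The library labelled WT chow 2 had a summed 22996 FPKM over the hepatocyte markers, carried by Alb, Apoa1, Ttr and Fgb, but Serpina1a stood at 24.1 FPKM, against 857 to 1491 in the 10 libraries other than WT chow 2 and WT chow 3, and Tat at 46.0 FPKM, against 193 to 660. In the same library Cyp7a1, Cyp8b1, Cyp7b1 and Baat were low, as given gene by gene below, while other synthesis genes were present, such as Amacr at 69.1 and Hsd17b4 at 130 FPKM (both named after their values were seen). Every comparison is therefore given with all 12 libraries and with the 10 left without WT chow 2 and WT chow 3. In bulk tissue fewer cells of a type and less RNA per cell cannot be told apart.

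The 5 enzymes were well detected in 10 of 12 libraries and nearly absent from WT chow 2 and WT chow 3, except Cyp27a1. Cyp7a1 (ENSMUSG00000028240, chromosome 4, 6265612 to 6275633, minus strand), the rate-limiting enzyme of the classical route, had 9.93, 17.6 and 17.6 FPKM in KO HFD and 37.7, 23.2 and 4.90 FPKM in KO chow, against 16.3, 36.4 and 36.7 FPKM in WT HFD and 6.53, 0.0636 and 0.0291 FPKM in WT chow. KO chow 3 and WT chow 1 were the lowest of the 10 libraries, and the level varied 7.70-fold among them. The values of WT chow 2 and WT chow 3 rest on 5 and 2 reads, where 3 reads are worth 0.0382 and 0.0436 FPKM.

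Cyp8b1 (ENSMUSG00000050445, chromosome 9, 121914356 to 121916305, minus strand) makes the hydroxylation that directs synthesis to cholic acid. It had 26.1, 85.9 and 60.1 FPKM in KO HFD and 116, 73.8 and 56.0 FPKM in KO chow, against 18.8, 72.5 and 68.5 FPKM in WT HFD and 58.4, 0.136 and 0.0311 FPKM in WT chow. Library 1 of both HFD groups was the low one, KO HFD 1 at 26.1 and WT HFD 1 at 18.8 FPKM, and all groups overlapped. WT chow 2 and WT chow 3 held 5 reads and 1 read.

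Cyp27a1 (ENSMUSG00000026170, chromosome 1, 74713574 to 74737892, plus strand), the mitochondrial sterol hydroxylase that starts the acidic route, was the most even of the enzymes across all 12 libraries. It had 107, 133 and 202 FPKM in KO HFD and 194, 193 and 168 FPKM in KO chow, against 169, 145 and 127 FPKM in WT HFD and 212, 70.0 and 29.1 FPKM in WT chow. WT chow 3 thus held 907 reads of it, in a library with 1 read of Cyp8b1. Outside WT chow 2 and WT chow 3 it ranked 1 or 2 among the 9 genes in every library.

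Cyp7b1 (ENSMUSG00000039519, chromosome 3, 18071950 to 18243338, minus strand), the oxysterol hydroxylase that follows in the acidic route, had 72.6, 100 and 257 FPKM in KO HFD and 137, 103 and 185 FPKM in KO chow, against 173, 113 and 90.2 FPKM in WT HFD and 159, 0.466 and 0.0280 FPKM in WT chow. KO HFD 3 was the highest and KO HFD 1 the lowest of the 10 libraries, so that 1 group spanned the range of the others. Baat (ENSMUSG00000039653, chromosome 4, 49489422 to 49506557, minus strand), which conjugates bile acids to taurine or glycine, had 61.5, 121 and 115 FPKM in KO HFD and 120, 126 and 122 FPKM in KO chow, against 109, 133 and 119 FPKM in WT HFD and 131, 1.59 and 0.0625 FPKM in WT chow. Apart from KO HFD 1, WT chow 2 and WT chow 3, Baat stayed between 109 and 133 FPKM.

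**Figure D1:**
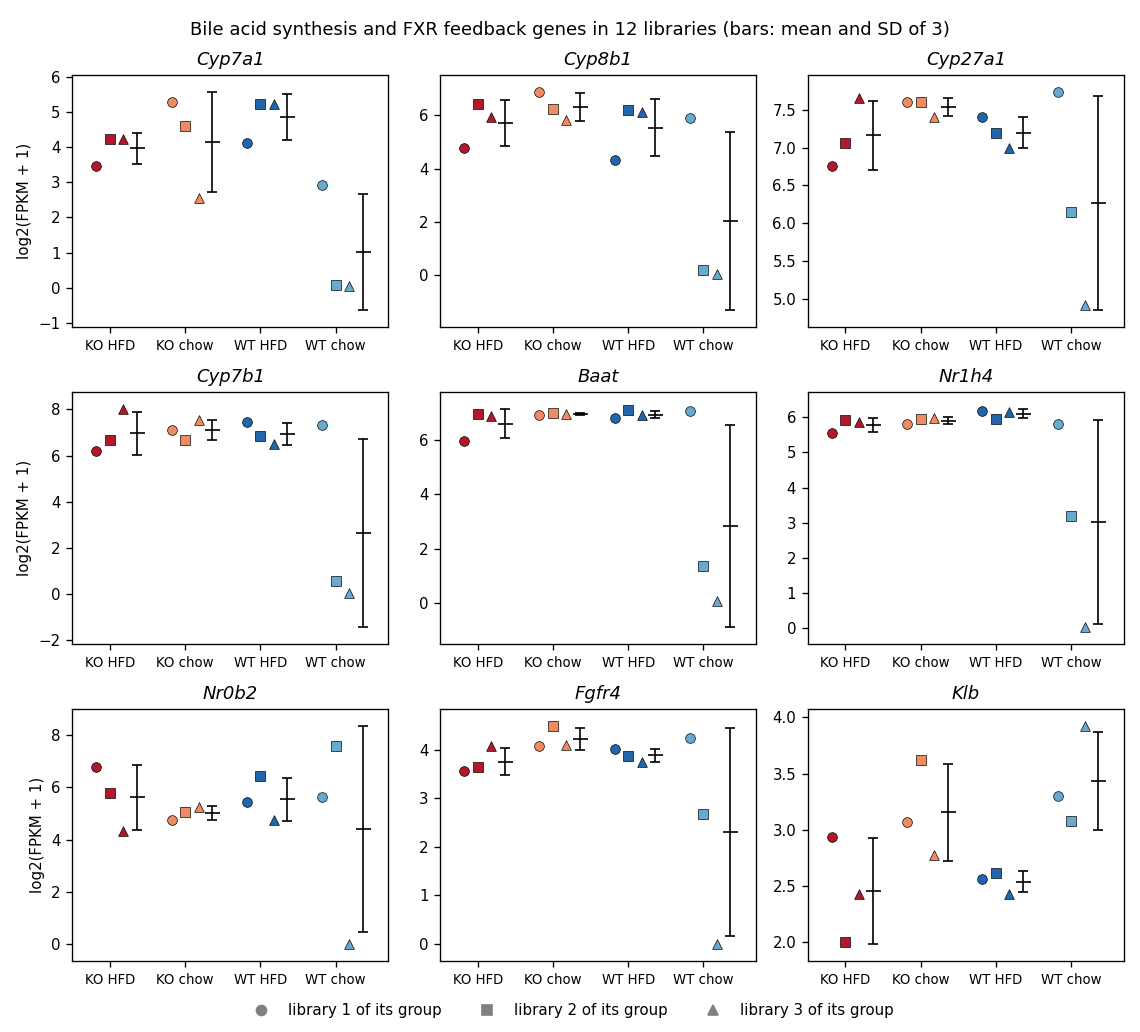
Level of each of the 9 genes as log2(FPKM + 1) on the y axis, in KO HFD, KO chow, WT HFD and WT chow from left to right; points are libraries, shaped by library number, and bars are the mean and SD of 3. In 8 genes, Klb being the exception, the lowest point belongs to WT chow 3, and in 7, Klb and Nr0b2 being the exceptions, WT chow 2 is the next lowest.

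The bile acid sensor was the steadiest of the 9 genes over the 10 libraries, and its target SHP varied widely. Nr1h4 (ENSMUSG00000047638, chromosome 10, 89454234 to 89533585, minus strand), which encodes FXR, had 45.4, 59.6 and 57.4 FPKM in KO HFD and 54.7, 60.1 and 62.0 FPKM in KO chow, against 71.7, 60.5 and 70.5 FPKM in WT HFD and 55.3, 8.15 and 0.0301 FPKM in WT chow. Over the 10 libraries its mean absolute deviation on the log2(FPKM + 1) scale was 0.13, the smallest of the 9 genes, and Cyp7a1 had the largest at 0.74.

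Nr0b2 (ENSMUSG00000037583, chromosome 4, 133553376 to 133556536, plus strand), which encodes the repressor SHP, had 110, 53.7 and 18.8 FPKM in KO HFD and 25.5, 32.5 and 37.0 FPKM in KO chow, against 41.9, 85.0 and 26.2 FPKM in WT HFD and 49.0, 192 and 0 FPKM in WT chow. WT chow 2 and KO HFD 1 were highest, and KO HFD held both the highest and the lowest of the 10 libraries, 5.84-fold apart. WT chow 3 had no read, which allows up to 0.161 FPKM (3 reads, counting error only). Among the 9 genes Nr0b2 ranked from 1 to 7 within the 10 libraries, the widest range of ranks.

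The receptor pair of the intestinal signal differed in how it fared in WT chow 3. Fgfr4 (ENSMUSG00000005320, chromosome 13, 55152640 to 55168759, plus strand), the hepatocyte receptor of Fgf15, had 10.8, 11.4 and 15.8 FPKM in KO HFD and 16.0, 21.5 and 16.2 FPKM in KO chow, against 15.3, 13.7 and 12.5 FPKM in WT HFD and 17.8, 5.36 and 0 FPKM in WT chow. All 3 KO HFD libraries lay below all 3 KO chow libraries, though KO HFD 3 at 15.8 and KO chow 1 at 16.0 FPKM nearly touched. In WT chow 3 the absence of reads allows up to 0.0547 FPKM.

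Klb (ENSMUSG00000029195, chromosome 5, 65348386 to 65384003, plus strand), the co-receptor beta-klotho, which adipocytes also express, had 6.66, 3.0 and 4.4 FPKM in KO HFD and 7.40, 11.3 and 5.85 FPKM in KO chow, against 4.90, 5.13 and 4.4 FPKM in WT HFD and 8.83, 7.46 and 14.2 FPKM in WT chow. It was highest in WT chow 3, the library with high adipocyte markers, where 810 reads fell on it. Klb and Cyp7a1 were the lowest 2 of the 9 genes by FPKM in WT chow 1 and KO chow 3, and in the other 8 of the 10 libraries Klb was last. None of the 9 gene spans overlapped another gene of the table.

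**Figure D2:**
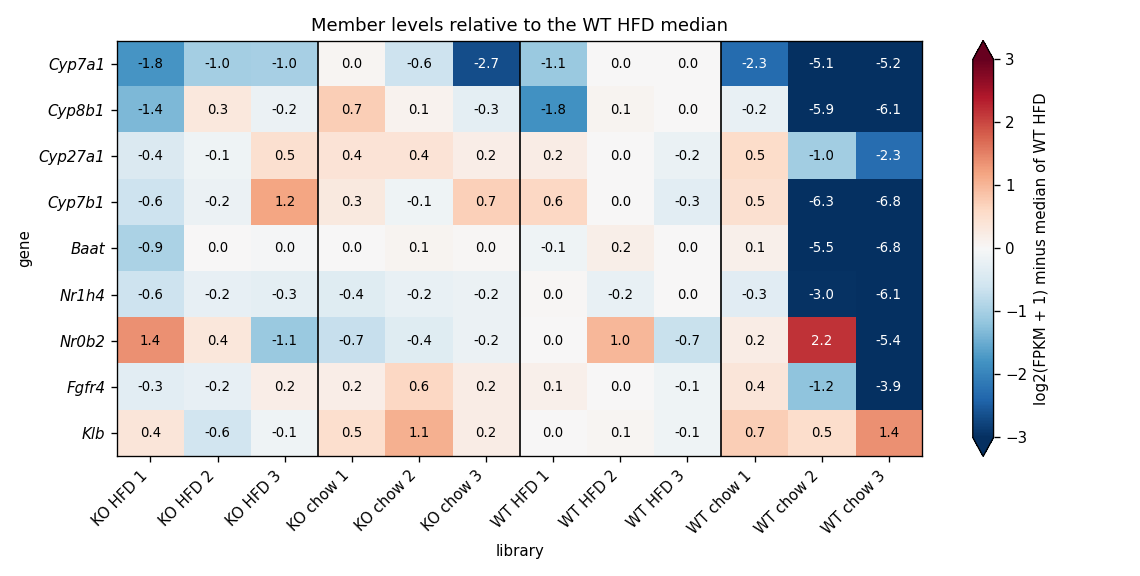
Level of each gene (rows) in each library (columns) as log2(FPKM + 1) minus the median of the 3 WT HFD libraries, with the groups KO HFD, KO chow, WT HFD and WT chow from left to right. WT chow 2 and WT chow 3 are dark for most genes, Nr0b2 stands at 2.2 in WT chow 2 and 1.4 in KO HFD 1, and Cyp7a1 stands at -2.7 in KO chow 3.

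Diet in the knockout was compared by KO HFD against KO chow. With 12 libraries the limma error also takes in the spread of WT chow 2 and WT chow 3, which are in neither group. By mean log2(FPKM + 1), 8 of the 9 genes were lower in KO HFD and Nr0b2 was higher, with a median log2 difference of -0.37, against -0.06 over all genes tested. That median rests on KO HFD 1: without this library it was -0.06, against -0.13 over all genes, with 3 of the 9 above 0, and without KO HFD 3 it was -0.62, against -0.01. None of the 9 passed an adjusted p of 0.05 with 12 libraries (limma, Benjamini-Hochberg over 12251 genes), where 0.155% of all genes did, nor with 10 libraries, where 7.76% did. At an unadjusted p under 0.05 in limma there was 1 member with 12 libraries (Klb), against 924 of 12251 genes. With 10 libraries there were 2 (Klb and Fgfr4), against 3576 of 12251 genes. Limma-voom on the recovered reads of all 12 libraries called 0 of the 9, in a fit that called 12 of 12251 genes. Klb averaged 4.68 ± 1.85 FPKM in KO HFD and 8.18 ± 2.80 FPKM in KO chow (SD, n = 3 each), a log2 difference of -0.70 (SE 0.31, limma adjusted p = 0.649 with 12 libraries; SE 0.26, adjusted p = 0.117 with 10). With libraries weighted by their quality in limma, Klb passed at -1.01 (adjusted p = 0.0108), in a fit where 19.8% of all genes did.

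Fgfr4 was the 1 gene of the 9 whose 2 groups did not overlap in that comparison, and 21.6% of all genes had a KO HFD group wholly below KO chow and 9.98% wholly above. It averaged 12.7 ± 2.73 FPKM in KO HFD and 17.9 ± 3.10 FPKM in KO chow (SD, n = 3 each), a log2 difference of -0.47 (SE 0.78, limma adjusted p = 0.916 with 12 libraries; SE 0.18, adjusted p = 0.111 with 10). Cyp8b1 differed by -0.60 (SE 0.56) and Nr0b2 by 0.61 (SE 0.59) with 10 libraries, at limma adjusted p of 0.522 and 0.528. Both differences are about the size of their error, and without KO HFD 1 they were -0.12 for Cyp8b1 and 0.027 for Nr0b2. Cyp27a1 and Baat differed by -0.37 each, and Cyp7a1, Cyp7b1 and Nr1h4 by -0.18, -0.16 and -0.13. Without KO HFD 1 these were -0.17 for Cyp27a1, -0.056 for Baat, 0.074 for Cyp7a1, 0.22 for Cyp7b1 and -0.0089 for Nr1h4.

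Genotype on the high fat diet was compared by KO HFD against WT HFD, neither of which holds a chow library. The limma error with 12 libraries again takes in WT chow 2 and WT chow 3. The median log2 difference of the 9 genes was -0.08, against -0.03 over all genes, with 3 genes higher and 6 lower by mean log2(FPKM + 1). Leaving out 1 library moved the median of the 9 to -0.03 without KO HFD 1, -0.29 without KO HFD 3 and -0.20 without WT HFD 3. None passed the threshold with 12 or 10 libraries (limma), where 0.155% and 0.18% of all genes did. The count of members at an unadjusted p under 0.05 in limma was 0 with 12 libraries and 1 with 10. Over all 12251 genes it was 156 and 1536. Limma-voom with 12 libraries called 0 of the members, in a fit that called few of all genes. Of the genes named above for HNF4A binding, Cyp8b1 is given below. Cyp7a1 averaged 15.05 ± 4.43 FPKM in KO HFD and 29.8 ± 11.7 FPKM in WT HFD (SD, n = 3 each). Its log2 difference of -0.90 (SE 0.62, limma adjusted p = 0.561 with 10 libraries) was the largest of the 9 in size, and WT HFD 1 at 16.3 FPKM lay within the KO HFD values.

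Nr1h4 was the 1 gene of the 9 whose groups did not overlap on the high fat diet, with KO HFD at 45.4 to 59.6 FPKM and WT HFD at 60.5 to 71.7 FPKM. A wholly lower KO HFD group was found in 12.4% of all genes and a wholly higher one in 7.37%. The log2 difference was -0.32 (SE 0.14, unadjusted p = 0.0498 in limma with 10 libraries, adjusted p = 0.398). Cyp8b1 differed by 0.17 (SE 0.56) and Nr0b2 by 0.09 (SE 0.59), and both had values of KO HFD above and below the WT HFD mean. Cyp27a1, Cyp7b1, Klb and Fgfr4 differed by -0.04, 0.03, -0.08 and -0.13, and Baat by -0.34 (SE 0.24), a value that KO HFD 1 at 61.5 FPKM sets apart from KO HFD 2 and KO HFD 3. The signs of the values for Cyp8b1, Cyp27a1, Cyp7b1, Nr0b2 and Klb changed with 1 library left out, so they carry no direction.

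Genotype on chow, KO chow against WT chow, was set by which WT chow libraries were in. With 12 libraries the 9 genes had a median log2 difference of 2.89, against 0.08 over all genes, and with 10 libraries -0.10, against 0.06. None passed in either fit (limma), where 0% and 0.00816% of all genes did. Unadjusted p was under 0.05 in limma for 6 members with 12 libraries, against 2584 of 12251 genes. Limma-voom with 12 libraries called 0 of all genes and so 0 of the members. Cyp7b1 gave the widest swing, from 4.48 (SE 1.51) with 12 libraries to -0.20 (SE 0.63) with WT chow 1 as the lone WT chow library. Cyp8b1 gave 4.27 (SE 1.30) and 0.42 (SE 0.80) in the same fits, Baat 4.12 (SE 1.34) and -0.10 (SE 0.33), and Nr1h4 2.89 (SE 1.04) and 0.09 (SE 0.20). Cyp7a1 kept its sign at 3.13 (SE 0.83, limma adjusted p = 0.195) and 1.23 (SE 0.88, adjusted p = 1). Without WT chow 1, so that WT chow 2 and WT chow 3 made up the group, 7 of the 9 passed (limma), all but Nr0b2 and Klb, and so did 24.3% of all genes, with Cyp7b1 at 6.82 and Cyp7a1 at 4.08. A lone library has no spread of its own and is taken to vary as the other groups do. All 9 genes overlapped between KO chow and WT chow, where 12.4% of all genes lay wholly higher and 4.43% wholly lower in KO chow.

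Diet in wild type, WT HFD against WT chow, also turned on the WT chow libraries, with median log2 differences of 3.08 with 12 libraries and -0.35 with 10, against 0.02 and 0.01 over all genes. None of the 9 passed with 12 libraries (limma, 0% of all genes). Limma-voom with 12 libraries called 0 of all genes and so 0 of the 9. With 12 libraries 6 members had an unadjusted p under 0.05 in limma, against 1807 of 12251 genes. Without WT chow 1, 7 of the 9 passed (limma; 19.9% of all genes), again all but Nr0b2 and Klb. Cyp7a1 and Nr1h4 lay wholly above WT chow in WT HFD, as 6.82% of all genes did, and Klb lay wholly below, as 4.35% did. Cyp7a1 averaged 29.8 ± 11.7 FPKM in WT HFD and 2.21 ± 3.74 FPKM in WT chow (SD, n = 3 each), a log2 difference of 3.84 (SE 0.83, limma adjusted p = 0.307). Against WT chow 1 alone, at 6.53 FPKM, it was 1.95 (SE 0.88, unadjusted p = 0.0525 in limma, adjusted p = 1), and all 3 WT HFD libraries were higher than that library. Klb averaged 4.81 ± 0.38 FPKM in WT HFD and 10.2 ± 3.55 FPKM in WT chow, with log2 differences of -0.90 (SE 0.31) and -0.76 (SE 0.37) at limma adjusted p of 0.307 and 1. It was thus below its chow value in both genotypes by mean, and in neither did it pass the test.

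**Figure D3:**
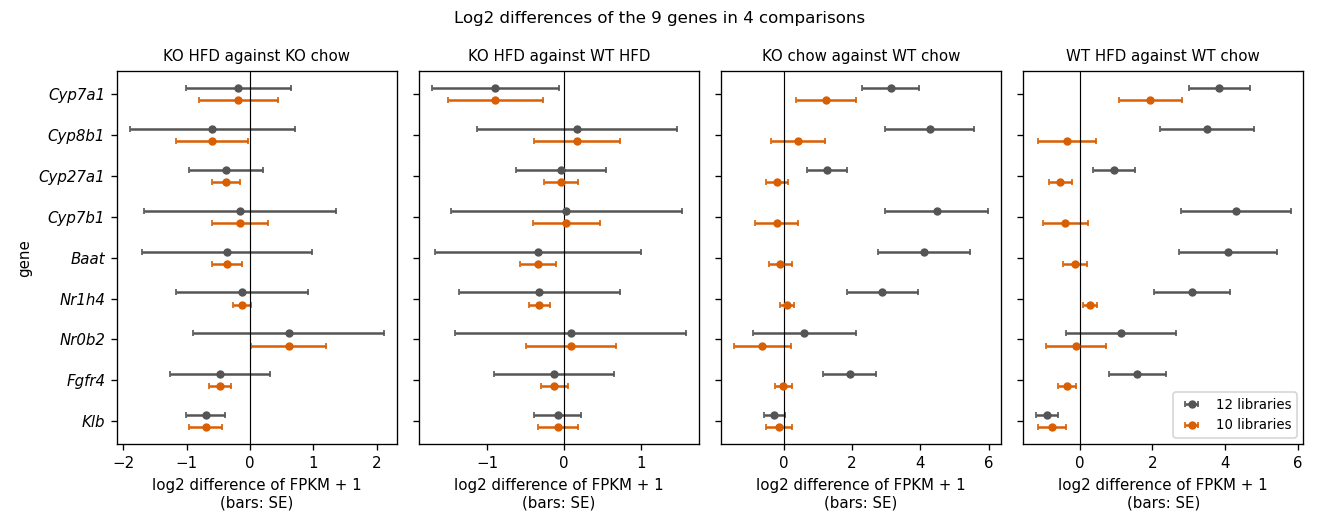
Log2 difference of FPKM + 1 (x axis) for each gene (y axis) in 4 comparisons, the group named first minus the second; points are limma estimates with 12 libraries (grey) and 10 libraries (orange), and bars are the SE. In both comparisons without WT chow the estimates are the same in the 2 fits and the bars are shorter with 10 libraries, while in both with WT chow the estimate for Cyp7b1 moves from over 4 to below 0.

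The interaction, the diet difference in KO minus that in WT, asks whether the diet difference was the same in both genotypes. None of the 9 passed (limma, 12 and 10 libraries; 0.122% and 0.0816% of all genes did). There were 3 members at an unadjusted p under 0.05 in limma with 12 libraries, against 2038 of 12251 genes. Limma-voom with 12 libraries called 0 of all genes and so 0 of the members. Without WT chow 1, 7 passed, all but Nr0b2 and Klb, as did 18.5% of all genes. Cyp7a1 had -4.03 (SE 1.17, limma adjusted p = 0.289) with 12 libraries and -2.13 (SE 1.07, adjusted p = 0.517) with 10, the largest of the 9 in size with 10. Its diet differences were -0.18 in KO and 1.95 in WT in the 10 libraries, and the WT value rests on WT chow 1.

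The balance between routes was read as the ratio of 2 genes within a library, on the log2 scale of FPKM + 1. Cyp8b1 to Cyp7a1, a ratio of the branch to cholic acid over entry to the classical route, was 1.31, 2.23 and 1.71 in KO HFD and 0.20, 0.97 and 0.88 in WT HFD. The means were 1.75 ± 0.46 in KO HFD and 0.68 ± 0.42 in WT HFD (SD, n = 3 each), a difference of 1.07 (p = 0.1 in a two-sided exact permutation test, which cannot go lower with 3 against 3; 0.8 adjusted over 8 tests). All KO HFD ratios exceeded all WT HFD ratios. In KO chow the ratio was 1.59, 1.63 and 3.27, against 2.98, 0.0951 and 0.00284 in WT chow, where the last 2 values have both genes near 0 reads. For Cyp7b1 to Cyp7a1, acidic over classical route, the mean was 3.0 ± 0.71 in KO HFD and 2.07 ± 1.10 in WT HFD, with overlap (exact permutation p = 0.3), and none of the other 6 tests of either ratio had an exact p below 0.3.

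Nr0b2 was set beside Cyp7a1 and Cyp8b1, the genes SHP represses, and Slc51b, an FXR-induced bile acid exporter subunit that was singled out after its values were seen. KO HFD 1, with Nr0b2 at 110 FPKM, had Cyp8b1 at 26.1 and Cyp7a1 at 9.93 FPKM, the lowest of KO HFD for each. WT chow 2, with Nr0b2 at 192 FPKM, had both near 0. That library was also low in Baat at 1.59 and Cyp7b1 at 0.466 FPKM, while Cyp27a1 stood at 70.0 FPKM. Low Cyp7a1 and Cyp8b1 are thus not particular to these genes there. WT HFD 2, with Nr0b2 at 85.0 FPKM, had Cyp8b1 at 72.5 and Cyp7a1 at 36.4 FPKM, as high as WT HFD 3 with Nr0b2 at 26.2 FPKM. So low Cyp7a1 went with high Nr0b2 in some libraries and not in others, and KO chow 3, with Cyp7a1 at 4.90 FPKM, had Nr0b2 at 37.0 FPKM. Slc51a, the other subunit of the Slc51b exporter, was below the filter and was also named after its values were seen. It had 0.310, 0.0978 and 0.0354 FPKM in KO HFD and 0 in every KO chow, WT HFD and WT chow library. Slc51b stood at 17.7 FPKM in KO HFD 1 and 22.3 FPKM in WT chow 2, and at 0.101 to 1.23 FPKM in the other 10. In the same 2 libraries the intestinal marker Lgals4 stood at 62.3 and 173 FPKM, against 7.01 to 18.3 FPKM in the other 10. In WT chow 2, Fabp2 stood at 4.07 and Apoa4 at 10.3 FPKM. Both stood at 33.8 FPKM or more in each of the 10 libraries other than WT chow 2 and WT chow 3. They and the sum therefore cannot tell intestinal from liver RNA here. The sum over the 5 markers was 187 FPKM in WT chow 2, within the 112 to 857 FPKM of the 10 libraries. In KO HFD 1, itself among those 10, the sum was 395 FPKM. Apoa4 made up 746 of the 857 FPKM in WT HFD 3. Vil1 was at its highest in KO HFD 1, at 0.512 FPKM, and stood at 0.153 FPKM in WT chow 2. The part of these values in the Slc51b levels was not tested. Fgf15, the intestinal signal itself, was at 0 in 11 libraries and at 0.0305 FPKM in KO HFD 1.

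**Figure D4:**
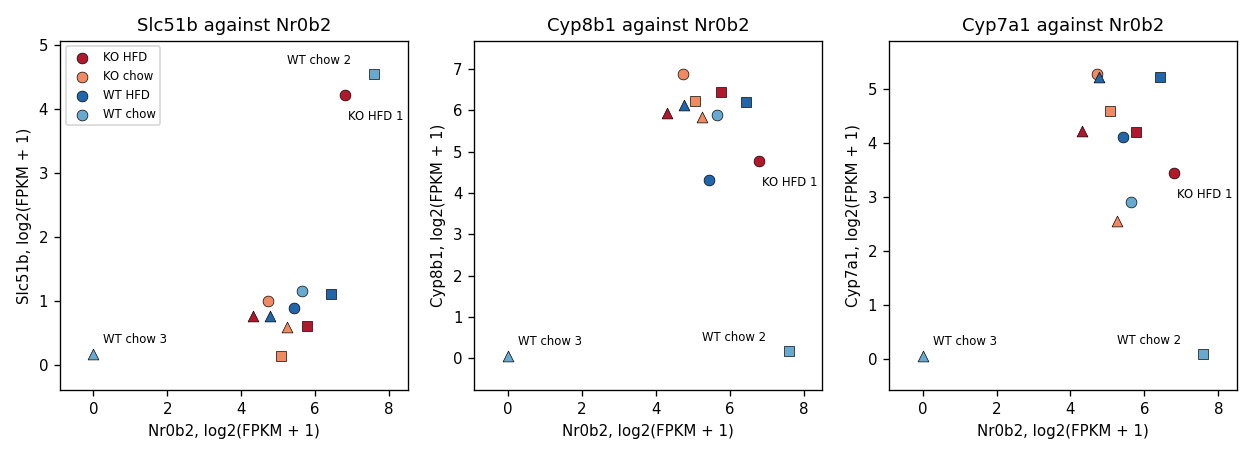
Slc51b, Cyp8b1 and Cyp7a1 (y axes) against Nr0b2 (x axes), all as log2(FPKM + 1); each point is 1 of 12 libraries, colored by group (KO HFD, KO chow, WT HFD, WT chow), with circles, squares and triangles for libraries 1, 2 and 3. KO HFD 1 and WT chow 2 stand apart at high Nr0b2 and high Slc51b, and WT chow 3 lies near 0 on every axis.

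The genes whose pattern over the 10 libraries was most like that of a member were looked up among 10962 protein-coding genes, by the mean absolute difference of centred log2(FPKM + 1). Among the genes nearest to Cyp7a1 were the globin gene Hbb-bt (0.43) and Gpm6a (0.49). Nearest to Cyp8b1 were the aldehyde dehydrogenases Aldh1a7 (0.27) and Aldh1a1 (0.30) and the P450 Cyp2c38 (0.27). Nearest to Nr0b2 were Sds, serine dehydratase (0.27), the mitochondrial subunit Cox7a1 (0.31) and the glycophorin Gypc (0.32). WT chow 2 and WT chow 3 were not used for this. In these 2 libraries Sds stood at 348 and 0.10 FPKM, Cox7a1 at 78.0 and 1970 FPKM and Gypc at 4.97 and 17.1 FPKM, against 192 and 0 FPKM of Nr0b2.

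The rest of the pathway was read from 3 further lists. Of 14 tested genes for other steps of synthesis, 0 passed in any comparison with 12 or 10 libraries (limma), and the same held for 13 tested regulators. In KO HFD against KO chow with 10 libraries, 2 of the 14 and 5 of the 13 had an unadjusted p under 0.05, against 3576 of 12251 genes, and the lists' median log2 differences were -0.20 and -0.21. Cyp2c70, the mouse enzyme that makes muricholic acids, had 187, 235 and 326 FPKM in KO HFD and 341, 755 and 668 FPKM in KO chow, a log2 difference of -1.19 (SE 0.33, limma adjusted p = 0.0549 with 10 libraries), and was named after its value was seen. The KO HFD and KO chow groups did not overlap, though KO HFD 3 at 326 and KO chow 1 at 341 FPKM lay close. Cyp2c70 had 253, 264 and 177 FPKM in WT HFD and 284, 38.2 and 0.671 FPKM in WT chow. KO HFD differed from WT HFD by 0.09 (SE 0.33). In KO HFD against KO chow, Scp2, the sterol carrier protein and the most abundant of its list, differed by -0.13 (SE 0.21). Rxra, the partner of FXR and the most abundant regulator, differed there by -0.21 (SE 0.12).

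Among 11 tested FXR targets and bile acid transporters, 1 rose and 1 fell in KO HFD against KO chow with 10 libraries (limma). The 1 that rose was Fabp6, which met the filter only through KO HFD, so its call is not taken as support. Of all genes 1.52% rose and 6.24% fell. With 12 libraries 0 of the list passed (limma), where 19 of 12251 genes did. In that fit 1 of the list had an unadjusted p under 0.05, against 924 of all genes. Abcc2, the canalicular exporter of conjugates, had 33.6, 45.6 and 28.1 FPKM in KO HFD and 64.6, 96.3 and 52.9 FPKM in KO chow, a log2 difference of -0.96 (SE 0.24, limma adjusted p = 0.0481 with 10 libraries). The groups did not overlap, but with 1 of the 9 libraries of KO HFD, KO chow and WT HFD left out in turn Abcc2 lost its call in 8 of 9 fits, at values from -1.15 to -0.72. Fgb, a fibrinogen chain and the most abundant of the list, differed by -0.05 (SE 0.33).

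Fabp6, the ileal bile acid binding protein, had 7.72, 0.871 and 2.25 FPKM in KO HFD and 0 in the other 9 libraries. It met the filter of a mean of 0.5 FPKM only through KO HFD, so its call and bounds rest on the group where it is high. It was at least 30.1-fold higher in KO HFD than in KO chow and at least 31.2-fold higher than in WT HFD, taking 3 reads over a group as the floor. Without KO HFD 1 these bounds were 13.0-fold and 13.5-fold. Its log2 difference from KO chow was 1.91 (SE 0.44, limma adjusted p = 0.0401 with 10 libraries), and the call was lost in 7 of 9 fits with 1 library left out, at values from 1.30 to 2.41. The 5 pancreas markers moved with it, at a summed 35.0 to 61.2 FPKM in KO HFD against 0.357 to 0.736 FPKM in KO chow, 0.481 to 0.733 FPKM in WT HFD and 0 to 4.93 FPKM in WT chow. Of these Ctrb1, Prss2, Pnlip and Cpa1 were at 0 in all KO chow and WT HFD libraries. The part of pancreatic RNA in the Fabp6 values was not tested. KO HFD also stood apart in the 4 heart markers, at a summed 0.0706 to 0.216 FPKM with Myl2 and Myh6 at 0, against 4.58 to 26.1 FPKM in the other 9 libraries. The intestinal marker Vil1 was at 0.512, 0.334 and 0.326 FPKM in KO HFD and at most 0.291 FPKM elsewhere, while Fgf15 was at 0 in KO HFD 2 and KO HFD 3. The part of these in the Fabp6 values was not tested either.

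**Figure D5:**
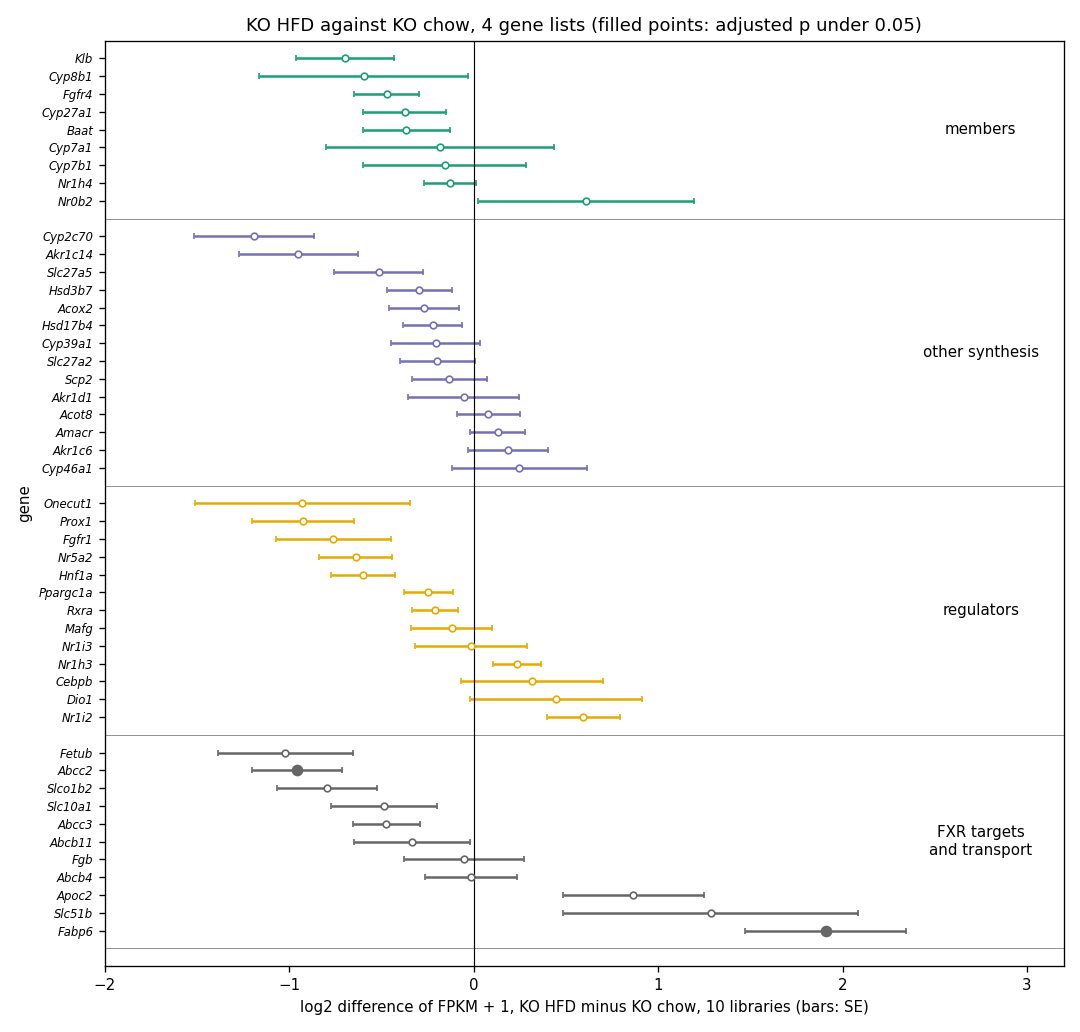
Log2 difference of FPKM + 1, KO HFD minus KO chow, with 10 libraries (x axis) for the 47 tested genes of 4 lists (y axis); bars are the SE, and filled points have a limma adjusted p under 0.05. Filled points are Abcc2 at -0.96 and Fabp6 at 1.91, and among the 9 members Nr0b2 stands alone above 0. Fabp6 met the filter only through KO HFD.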

How the data were processed

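Mouse RNA labelled as liver was sequenced in 12 samples, with 3 biological replicates in each of 4 groups of genotype and diet, per the labels. The deposited table holds FPKM for 35275 genes, computed by the authors, beside gene length and coordinates. The submitters' processing notes name the tools CASAVA, TopHat, STAR, HTSeq (0.6.1) and DESeq2 (2) and the builds GRCm38 and mm10, to which the table's coordinates are taken to belong. Annotation release, strand setting and filters: not given in the sources used here, so reads of antisense partners could not be told apart. All columns of values were mapped to samples by title.

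Multiplied by gene length, 100% of FPKM values were whole multiples of 1 step per library, within 0.1 of a read. The reads recovered in this way numbered 15705196 to 20311766 per library. Floors from reads cover counting error only.

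Values were taken as log2(FPKM + 1), a scale that understates changes of low genes. A mean of at least 0.5 FPKM was required, which left 12251 genes. These were fitted in limma (3.58.1, in R 4.3.3) with empirical Bayes moderation and a trend, 4 group means and 5 contrasts, adjusted by Benjamini-Hochberg at 0.05. The same fit was made with 10 libraries, without WT chow 2 and WT chow 3, on the same genes. The fit was tested on simulated data. Ratios of 2 genes were compared by exact permutation in Python 3.11.15 (8 tests). The limma p-values rest on 1 spread per gene, shared by all 4 groups and moderated across genes. With 12 libraries this spread takes in WT chow 2 and WT chow 3, also in comparisons that do not use WT chow. The permutation p-values rest on the libraries of the groups compared.

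The members and gene lists were chosen with earlier results of these data known. Named were all members, Hnf4a, the genes past the threshold and the most abundant gene not past it in each list, and the 3 protein-coding genes nearest in pattern to Cyp7a1, Cyp8b1 and Nr0b2; others are said to be chosen after their values were seen. A gene that this rule named is not reported here. Alternatives covered the pseudocount, filter, scaling, weights, a replicate block, limma-voom on recovered reads, and libraries left out. The labels name no pairing and same-numbered libraries did not deviate together, so the numbers were not taken to pair samples. Promoter sequences are from RefSeq (GRCm38.p6).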

Additional observations from a re-analysis of the deposited data

How the results depend on the processing

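Of 413 values of the 9 members, Abcc2 and Fabp6 under alternatives other than left-out libraries, 401 kept their sign and their side of the threshold, 9 changed sign and 3 came to pass it. With 1 library left out, 22 of 582 changed sign and 22 came to pass. The 582 also hold Abcc2 and Fabp6 in the fit with 10 libraries, and both lost their calls in most of those fits, as given above. The 3 alternatives that came to pass were Klb with library weights and Fabp6 with library weights and with a pseudocount of 0.1, all in KO HFD against KO chow. No member passed under any alternative other than Klb with library weights, which brought that count to 1, and the 7 without WT chow 1. The cause of these shifts was not tested.

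In KO HFD against KO chow, 19 genes of the whole table were called as reported. That count was 951 with 10 libraries and 39 with 9 libraries (also without KO HFD 1), 31 with no filter, 3 with a minimum of 2 FPKM, 2420 with library weights and 12 with limma-voom. With 10 libraries it ran from 17 to 1535 with a further library left out, an alternative chosen after seeing the data, as were the medians of the members and the Fabp6 bounds with a library left out. In KO HFD against WT HFD the count of 19 became 3 with a minimum of 2 FPKM and 33 with library weights. In KO chow against WT chow the count of 0 became 1 with 10 libraries, 3 with 9, 4 with no filter and 0 to 2981 with 1 library left out. In WT HFD against WT chow it became 1 with 10 libraries, 3 with 9 and 0 to 2435 with 1 left out. In the interaction the count of 15 became 24 with 9 libraries, 6 with a pseudocount of 0.1, 25 with no filter, 1 with a minimum of 2 FPKM, 7 with library weights, 0 with limma-voom and 5 to 2265 with 1 library left out. Members called ran from 0 to 7 with 1 library left out in the 3 comparisons that use WT chow.

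With the replicate number as a block the interaction called 4 genes and 0 members. The correlation of same-numbered libraries ran from -0.50 to 0.13 (median -0.04, 2 of 18 pairs over 0.1). For differently numbered libraries the median was 0.04, with 10 of 36 pairs over 0.1. The labels name no pairing, and these values cannot exclude one. The block changed no other call of a member.

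With 10 libraries, signs changed in KO chow against WT chow for Cyp27a1 (-0.20), Cyp7b1 (-0.20), Baat (-0.10), Nr0b2 (-0.63) and Fgfr4 (-0.0053). They changed in WT HFD against WT chow for Cyp8b1 (-0.35), Cyp27a1 (-0.54), Cyp7b1 (-0.39), Baat (-0.13), Nr0b2 (-0.10) and Fgfr4 (-0.35), and in the interaction for Cyp27a1 (0.16), Cyp7b1 (0.23) and Nr0b2 (0.72). With 9 libraries the values of both chow comparisons were the same. With 9 libraries Cyp7a1 gave 0.074 and Cyp7b1 0.22 in KO HFD against KO chow, and Cyp27a1 0.17 and Nr0b2 -0.50 in KO HFD against WT HFD. In the interaction Cyp8b1 gave 0.23, Cyp27a1 0.36, Cyp7b1 0.61, Baat 0.069, Nr0b2 0.13 and Klb -0.18. In KO HFD against WT HFD, Cyp7b1 gave -0.087 with TPM, -0.13 with quantile normalization and -0.055 with library weights, and Nr0b2 gave -0.032 with TPM and -0.33 with library weights. With library weights Nr0b2 gave -0.40 in KO chow against WT chow, and in the interaction Nr0b2 gave 0.070 and Klb -0.25. Klb gave -0.082 there with TPM.

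With 1 library left out, Cyp7a1 ranged from -0.97 to 0.38 and Cyp7b1 from -0.69 to 0.22 in KO HFD against KO chow. In KO HFD against WT HFD the ranges were -0.45 to 0.64 for Cyp8b1, -0.29 to 0.17 for Cyp27a1, -0.50 to 0.41 for Cyp7b1, -0.50 to 0.75 for Nr0b2 and -0.32 to 0.15 for Klb. Nr0b2 ranged from -1.60 to 2.19 in KO chow against WT chow, from -1.08 to 2.72 in WT HFD against WT chow and from -2.11 to 1.69 in the interaction, where Klb ranged from -0.047 to 0.43. The ratio of Cyp8b1 to Cyp7a1 ranged from -0.70 to 0.14 in KO HFD against KO chow and from -0.85 to 0.64 in WT HFD against WT chow. That of Cyp7b1 to Cyp7a1 ranged from -0.54 to 1.03 and from -0.37 to 1.84 in the same comparisons, and was -0.014 in WT HFD against WT chow with a pseudocount of 0.1.

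Rescaling to TPM gave medians over all genes of -0.23 in KO HFD against KO chow, -0.13 in KO HFD against WT HFD, 0.25 in KO chow against WT chow, 0.12 in WT HFD against WT chow and -0.37 in the interaction, against -0.06, -0.03, 0.08, 0.02 and -0.10 as deposited. In WT chow 3 the values of 7 of the 9 genes rest on 0 to 2 reads, so counting error limits them. That library held 16495788 reads on genes, within the range of the others.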
